A study of Mus musculus with 3 samples.

Results

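The cells described here are mouse bladder cells, mostly urothelial by markers, whose droplets held RNA of both keratin 4 and gasdermin C. They were picked by a count rule: at least 5 unique molecular identifiers (UMIs, the tags that mark single captured RNA molecules) of Krt4 and at least 3 of Gsdmc2 and Gsdmc3 together, in cells with at least 500 genes, at most 20% mitochondrial UMIs and at least 5000 UMIs. Of 25784 deposited barcodes, 13926 passed the cell filters and 233 met the rule. These members were compared with the 12291 filtered cells that held 0 UMIs of Gsdmc2 and Gsdmc3, called Gsdmc-zero cells below. A narrower comparison used the 1050 Gsdmc-zero cells with at least 5 Krt4 UMIs.

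The study made 3 single-cell RNA libraries with 10x Genomics droplets from trypsin-released bladder cells, 1 of wild-type mice, 1 of Lpar6 knockout mice and 1 of Cab39l knockout mice. The cells of 15 mice were pooled for each library, which leaves 1 sample per genotype and no way to separate animals. Strain, age and the extent of each deletion are not given in the sources used here. Lysophosphatidic acid signals through receptors of which LPAR6 is one, and CAB39L is a scaffold of the LKB1 kinase complex. The Lpar6 knockout library held 0 Lpar6 UMIs in members and in Gsdmc-zero cells alike, beside 14.1 CPM (UMIs of the gene scaled to 1000000 UMIs of the summed cells) in wild-type and 12.2 CPM in Cab39l knockout members. Cab39l stood at 116 CPM in wild-type, 89.7 CPM in Lpar6 knockout and 31.0 CPM in Cab39l knockout members, so RNA from that locus was reduced but still counted in the library labelled Cab39l knockout. The pairs of libraries shared 16 to 19 barcodes, none of which belonged to a member.

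Gasdermins are proteins whose amino-terminal part, once cut free by a protease, inserts into membranes and forms pores. This is the route to pyroptosis, a lytic form of cell death, and to the release of interleukin-1 family cytokines. The mouse genome holds several neighbouring gasdermin C copies, which are known in the intestinal epithelium for their induction by type 2 cytokines through STAT6. Keratin 4 is a type II keratin of stratified epithelia that do not cornify. The urothelium itself is built of basal, intermediate and umbrella cells, and its luminal face is covered by uroplakin plaques.

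The copies of the gate lie side by side on the minus strand of chromosome 15 (mm10): Gsdmc at 63775968 to 63808759, Gsdmc2 at 63824346 to 63845177, Gsdmc3 at 63857724 to 63878558 and Gsdmc4 at 63891264 to 63912297. In the GENCODE vM21 transcripts, the 1440-base coding sequences of Gsdmc2 and Gsdmc3 matched at 1398 positions (97.1% identity), while Gsdmc4 matched either of them at 93.4% and Gsdmc matched them at 83.8% and 84.0%. The 120-base coding stretch with the most differences between Gsdmc2 and Gsdmc3, positions 743 to 862 counted from the start codon, is shown to place the differences between both copies, and capitals mark the 15 bases that differ.
Gsdmc2: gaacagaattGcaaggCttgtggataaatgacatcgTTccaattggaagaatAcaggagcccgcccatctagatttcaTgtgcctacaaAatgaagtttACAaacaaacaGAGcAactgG
Gsdmc3: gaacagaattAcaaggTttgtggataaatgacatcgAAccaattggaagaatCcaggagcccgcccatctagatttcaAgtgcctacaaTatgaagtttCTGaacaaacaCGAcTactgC
Of the 411 windows of 90 bases in the last 500 bases of the Gsdmc2 transcript, 32 (7.79%) also occur in the Gsdmc3 transcript and 44 (10.7%) in the Gsdmc transcript. In these shared windows the copies cannot be told apart by sequence. How UMIs were split among the copies was not checked, as no reads were used. The rule uses the sum of Gsdmc2 and Gsdmc3.

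The members made up 56 of 3423 filtered cells in the wild-type library, 58 of 4866 in the Lpar6 knockout library and 119 of 5637 in the Cab39l knockout library. These are shares of 1.64% (exact 95% binomial interval 1.24 to 2.12), 1.19% (0.906 to 1.54) and 2.11% (1.75 to 2.52). Intervals cover counting error only, and with 1 library a genotype no difference in share was tested. Krt4 itself was unevenly spread: 11.3% of filtered wild-type cells, 4.52% of Lpar6 knockout cells and 16.0% of Cab39l knockout cells held at least 5 Krt4 UMIs. Among those Krt4-positive cells, members made up 14.4% (11.1 to 18.3) in wild type, 26.4% (20.7 to 32.7) in the Lpar6 knockout and 13.2% (11.04 to 15.6) in the Cab39l knockout. With at least 1 UMI of each after thinning to 5000 UMIs, the shares were 2.69%, 1.56% and 2.20%, so the order of the wild-type and Cab39l knockout libraries turned. The Lpar6 knockout library had the smallest share of members among all cells and the largest among Krt4-positive cells.

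Gasdermin C UMIs were more common in cells that also held Krt4. With every filtered cell thinned to 5000 UMIs, so that depth is equal, a Gsdmc2 or Gsdmc3 UMI was found in 16.0% of wild-type cells with a Krt4 UMI and in 4.81% of those without. The corresponding shares were 18.9% and 2.73% in the Lpar6 knockout library and 11.003% and 3.30% in the Cab39l knockout library. For background from free RNA, cells with lymphoid markers were thinned to 2000 UMIs. A gasdermin C UMI was found in 2 of 209 such wild-type cells (0.957%), 0 of 18 Lpar6 knockout cells and 2 of 102 Cab39l knockout cells (1.96%), beside 3.94%, 2.16% and 2.56% of urothelial cells at the same depth. The unthinned median depths were 3091 to 3725 UMIs in the lymphoid-marker cells and 22336 to 30242 UMIs in the urothelial cells. The intervals of both cell kinds overlap in all 3 libraries, at 0.116 to 3.41 against 3.28 to 4.68 in wild type, 0 to 18.5 against 1.77 to 2.61 (Lpar6 knockout) and 0.238 to 6.90 against 2.15 to 3.02 (Cab39l knockout). In wild type the overlap spans only 3.28 to 3.41, and the Lpar6 knockout interval rests on 18 cells and can show little. How many single gasdermin C UMIs are background was not tested.

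**Figure D1:**
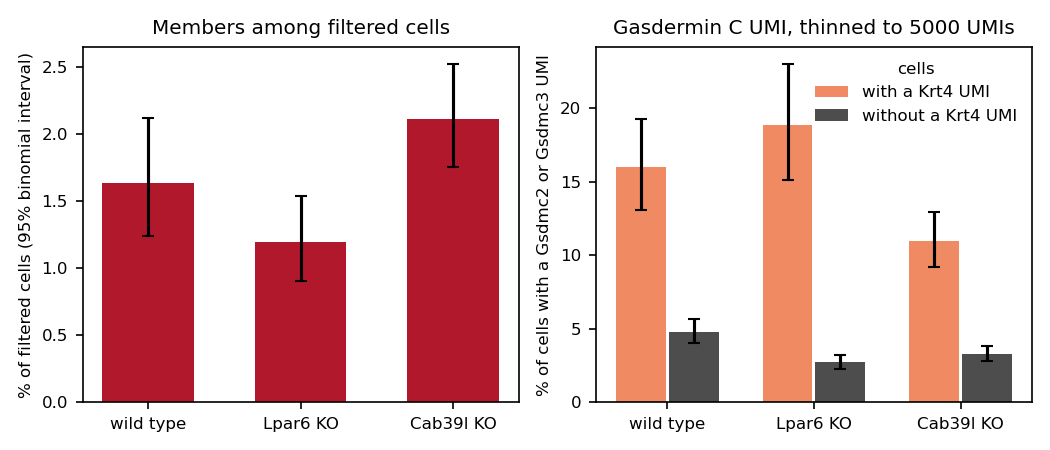
Left, members as a percentage of filtered cells in each library (bars) with exact 95% binomial intervals (error bars). Right, percentage of cells with a Gsdmc2 or Gsdmc3 UMI after thinning to 5000 UMIs, among cells with and without a Krt4 UMI; in all 3 libraries the share is higher among cells with a Krt4 UMI.

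Members held fewer UMIs than Gsdmc-zero cells in 2 of the 3 libraries. The wild-type members had a median of 16991 UMIs, those of the Lpar6 knockout 14129 and those of the Cab39l knockout 29863, against 21124.5, 26979 and 29238.5 UMIs in Gsdmc-zero cells. Their median mitochondrial share was 10.6%, 6.68% and 6.02%, against 8.70%, 6.27% and 6.16%. Among the top 6% of doublet scores there were 3, 0 and 7 members (5.36%, 0% and 5.88% of them), while 7.06%, 7.39% and 6.88% of Gsdmc-zero cells lay there.

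The genes of the gate describe what the rule chose. The tests described below ran over all genes, these included, but calls of gate genes are not read as results. Gsdmc2, the copy with more UMIs, stood at 332, 495 and 201 CPM in the summed members of the wild-type, Lpar6 knockout and Cab39l knockout libraries. Gsdmc3 stood at 76.1, 154 and 31.0 CPM, which is 18.7%, 23.8% and 13.3% of the pair's UMIs. Few UMIs were assigned to the other copies, with Gsdmc at no more than 1.85 CPM and Gsdmc4 at no more than 0.939 CPM. Both Gsdmc2 and Gsdmc3 were seen in 26 of 56, 40 of 58 and 57 of 119 members, and only Gsdmc3 in 1, 0 and 2. A member held 3 to 27 gasdermin C UMIs in wild type (median 6), 3 to 58 in the Lpar6 knockout (median 8.5) and 3 to 40 in the Cab39l knockout (median 5). Krt4 stood at 617, 830 and 475 CPM in members, at 367, 303 and 339 CPM in the Krt4-positive Gsdmc-zero cells and at 52.2, 18.2 and 62.8 CPM in all Gsdmc-zero cells. The Krt4-positive comparison cells therefore pass the same Krt4 threshold without matching the members' level.

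The cells nearest the thresholds are given as a description. Members with exactly 3 gasdermin C UMIs (9, 9 and 29 cells) had Krt4 at 368, 430 and 389 CPM, and cells with 2 gasdermin C UMIs and at least 5 Krt4 UMIs (28, 10 and 41 cells) had 529, 347 and 475 CPM. Ly6a stood at 4.78, 69.2 and 6.97 CPM just inside that threshold and at 1.49, 12.9 and 3.17 CPM just outside it. At the Krt4 threshold, members with exactly 5 Krt4 UMIs (6, 6 and 10 cells) had Gsdmc2 at 251, 353 and 216 CPM, and cells with 4 Krt4 UMIs and at least 3 gasdermin C UMIs (4, 8 and 8 cells) had 365, 200 and 161 CPM.

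Of the 3 genes named with these cells beside the gate, Ly6a was higher in members than in all Gsdmc-zero cells of every library. Nupr1 was higher in the wild-type and Lpar6 knockout libraries, and Reg3g in the Lpar6 knockout library alone. Ly6a encodes the surface antigen Sca-1, and stood at 48.8, 175 and 18.3 CPM in the wild-type, Lpar6 knockout and Cab39l knockout members against 9.65, 2.92 and 4.67 CPM in Gsdmc-zero cells. At least 1 Ly6a UMI was found in 13 of 56, 40 of 58 and 27 of 119 members. Cells with at least 3 gasdermin C but under 5 Krt4 UMIs had Ly6a at 48.7, 57.1 and 4.57 CPM. Nupr1, a small stress-induced nuclear protein, stood at 18.8, 551 and 14.6 CPM in members and at 5.45, 2.97 and 28.7 CPM in Gsdmc-zero cells. The Cab39l knockout library is the one where Nupr1 was lower in members. With both classes limited to urothelial cells, Nupr1 was higher in members there too, with Gsdmc-zero cells at 6.28 CPM. Within the Lpar6 knockout members, 30 of 58 cells held at least 5 Nupr1 UMIs, up to 109 in 1 cell, and without the top 3 cells the level was still 321 CPM. Only 1 wild-type and 4 Cab39l knockout members held that many. Without the top 3 cells, wild-type members stood at 8.90 CPM of Nupr1 and Cab39l knockout members at 8.92 CPM. Reg3g, a secreted C-type lectin that kills Gram-positive bacteria, stood at 5.64, 16.6 and 3.71 CPM in members against 7.18, 4.76 and 4.65 CPM in Gsdmc-zero cells. It was higher in members of the Lpar6 knockout library alone, and there the cells with at least 3 gasdermin C UMIs but under 5 Krt4 UMIs had more of it, at 187 CPM. Only 9 of 58 Lpar6 knockout members held a Reg3g UMI, 3 cells held 55.6% of them, and without these 3 the level was 7.73 CPM. The label's Reg3g is thus not borne out in the wild-type and Cab39l knockout members.

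**Figure D2:**
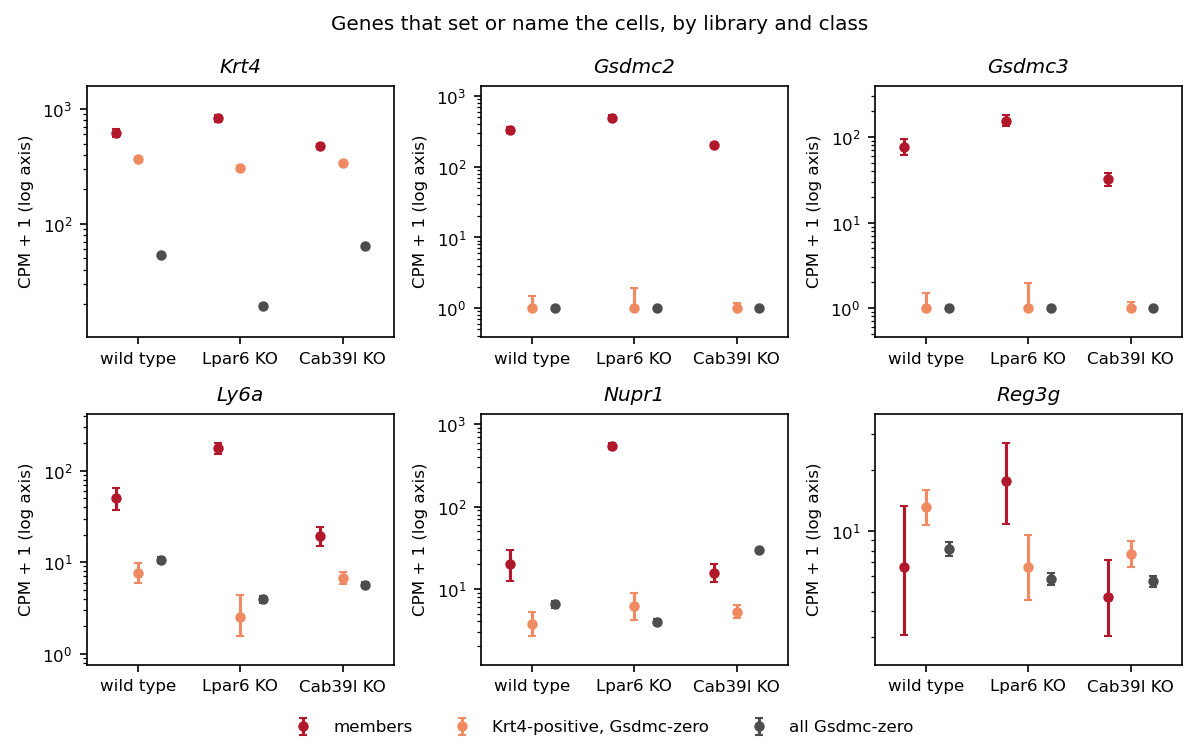
CPM + 1 on a log axis in UMIs summed over members, Krt4-positive Gsdmc-zero cells and all Gsdmc-zero cells of each library; error bars are exact 95% Poisson intervals. Ly6a is highest in members of all 3 libraries, Nupr1 reaches 551 CPM in Lpar6 knockout members only, and Reg3g of members is below that of both other classes in wild type and in the Cab39l knockout.

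Levels of several genes followed the number of gasdermin C UMIs among the members. From members with 3 to 5 gasdermin C UMIs (26, 15 and 65 cells in the libraries in the order above) through those with 6 to 10 (19, 17 and 37 cells) to those with over 10 (11, 26 and 17 cells), Ly6a went from 20.1 through 35.5 to 163 CPM in wild type. It went from 54.9 through 199 to 238 CPM in the Lpar6 knockout and from 6.42 through 21.9 to 56.2 CPM in the Cab39l knockout. In wild type, 3 cells held 51.9% of the members' Ly6a UMIs, so its order there rests on few cells. Without the top 3 cells, all members together stood at 24.7, 141 and 12.2 CPM of Ly6a, down from 48.8, 175 and 18.3 CPM. Nupr1 had the same order in each library, ending at 34.9, 1045 and 52.3 CPM. Cldn3, a claudin of tight junctions, was at 0, 12.9 and 1.48 CPM in the lowest group and at 17.5, 108 and 21.3 CPM in the highest. In wild type all 6 Cldn3 UMIs of members lay in 3 cells. Without the top 3 cells, Cab39l knockout members stood at 0.811 CPM of Cldn3, so its order there rests on few cells. Gpnmb ended highest in wild type (390 CPM) and in the Cab39l knockout (178 CPM), while in the Lpar6 knockout it peaked at 322 CPM in the middle group and was 238 CPM in the top one. Groups of under 20 cells are thin: without them wild type keeps the lowest group, the Lpar6 knockout the highest and the Cab39l knockout the lower 2, among which Ly6a still went from 6.42 to 21.9 CPM. No test was made across these groups.

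**Figure D3:**
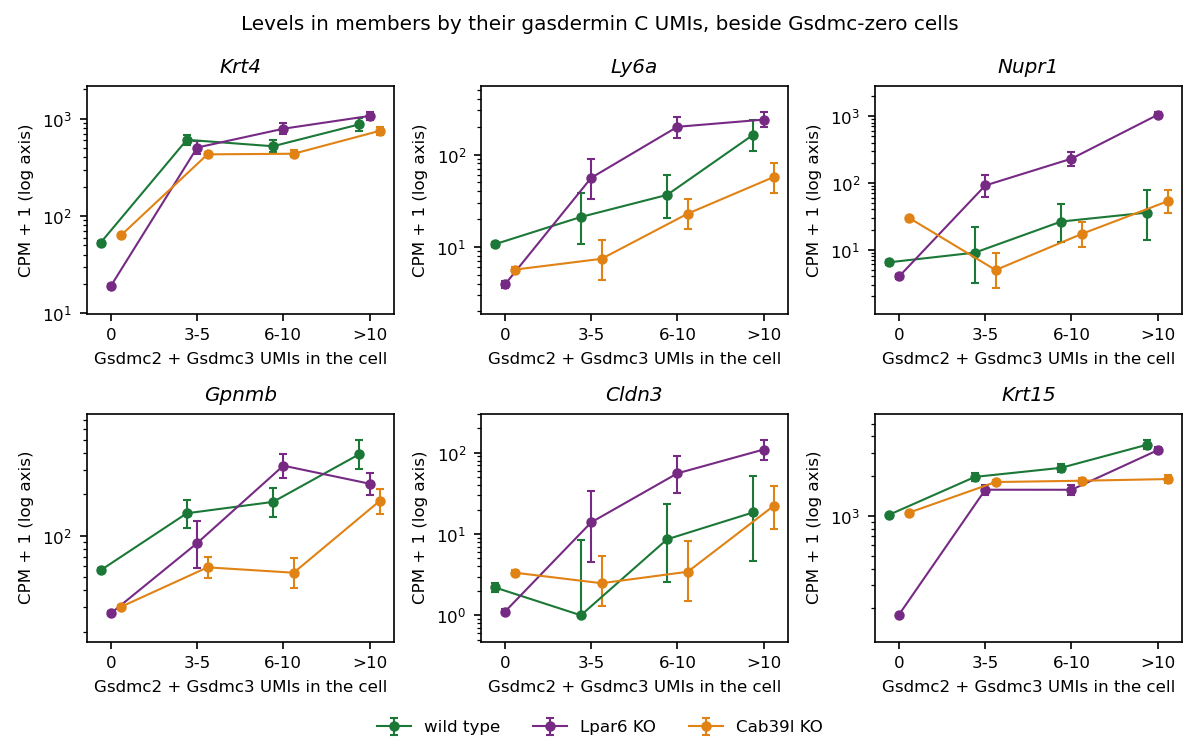
CPM + 1 on a log axis for summed Gsdmc-zero cells and for members grouped by their Gsdmc2 plus Gsdmc3 UMIs, 1 line per library, with exact 95% Poisson intervals. Ly6a, Nupr1 and Cldn3 are higher in members with over 10 gasdermin C UMIs than in those with 3 to 5 in all 3 libraries, while Krt15 differs little across members of the Cab39l knockout. Cldn3 of members rests on few cells in wild type and in the Cab39l knockout, as does Ly6a in wild type.

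Most members were urothelial by their marker genes. All 11 uroplakin and umbrella genes were detected in the members of every library, at a summed 9435, 9969 and 11852 CPM against 10222, 12503 and 11848 CPM in Gsdmc-zero cells, and none of the 11 was called against them. Upk3a stood at 3597, 4067 and 4898 CPM in members against 4668, 6201 and 5433 CPM, a log2 difference of -0.44 that passed on p (edgeR adjusted p = 0.0302) but not on size. By a rule on uroplakin share and on other cell types' markers, 1 of 56, 8 of 58 and 2 of 119 members were not urothelial. Among Gsdmc-zero cells these were 282 of 2930, 76 of 4437 and 231 of 4924. In the Lpar6 knockout library the share was thus larger in members, and in the other libraries smaller. Macrophage and dendritic markers summed to 9.39, 0.925 and 1.85 CPM in members and to 498, 19.2 and 116 CPM in Gsdmc-zero cells, with 4, 5 and 4 of the 6 markers at 0 in members. Genes of the sex glands summed to 7.52, 1.85 and 55.4 CPM in members and to 35.0, 22.1 and 1815 CPM in Gsdmc-zero cells. Each library's comparison cells thus hold other cell types that the members largely lack, and genes lower in members are read with that beside them.

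Against all Gsdmc-zero cells, 131 genes were higher in members and 124 were lower, of 12768 tested (1.03% and 0.971%). The test was edgeR's quasi-likelihood test on UMIs summed per library and class, with the library as a block, and a gene was called at a Benjamini-Hochberg adjusted p under 0.05 and at least 1.5-fold. It asks what is shared by 3 libraries of 3 genotypes, so it holds no replicate of any genotype. Against urothelial Gsdmc-zero cells alone, 130 genes were higher and 42 lower, of which 116 and 40 were among the genes called before. In this comparison, and wherever urothelial Gsdmc-zero cells are named below, the members were limited to urothelial cells too. This kept 55 wild-type, 50 Lpar6 knockout and 117 Cab39l knockout members. Against Krt4-positive Gsdmc-zero cells, 34 genes were higher and 2 were lower of 10054 tested (0.338% and 0.0199%). Of these, 33 of the higher and both of the lower genes were also called against all Gsdmc-zero cells, and 5 of the 33 are genes that set or name the cells. Without the Lpar6 knockout library the calls against all Gsdmc-zero cells were 71 higher and 172 lower. Without the library block they were 9 and 2, and with DESeq2 they were 78 and 37, with 35 of 48 named genes still called. Of the genes named below as called, DESeq2 did not call Krt15, Krt23, Lama3, Ly6e, Cyp2f2, Dsc2, Pkp1 and Tff1.

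The ranking rule asked for a call in both comparisons and against urothelial Gsdmc-zero cells, at least 50 CPM in every library and the same direction in all 3 libraries, and 8 higher genes and 1 lower gene met it. Gpnmb, a membrane glycoprotein of lysosomes and melanosomes, stood at 195, 217 and 72.6 CPM in members of the wild-type, Lpar6 knockout and Cab39l knockout libraries, against 55.0, 26.2 and 29.4 CPM in Gsdmc-zero cells. Every library's members were above its comparison cells, by a log2 difference of 1.98 ± 0.15 (SE, edgeR adjusted p = 1.36e-11), and by 1.10 ± 0.15 against Krt4-positive cells (edgeR adjusted p = 0.00199). Here and below the SE is the absolute log2 difference over the square root of the test's F statistic. It does not measure the spread between libraries: with 1 library left out, the Gpnmb difference against all Gsdmc-zero cells ran from 1.52 to 2.34. Adh7, the alcohol dehydrogenase that also oxidises retinol, stood at 122, 145 and 110.5 CPM against 47.2, 34.3 and 44.2 CPM, a log2 difference of 1.51 ± 0.11 (edgeR adjusted p = 2.38e-12). Against Krt4-positive cells the Adh7 difference was 0.63 ± 0.09, and it fell under 1.5-fold without the Lpar6 knockout library (0.54). Anxa3, a calcium-dependent membrane-binding annexin, stood at 76.1, 112 and 73.1 CPM against 34.0, 27.0 and 37.8 CPM. Its log2 difference was 1.30 ± 0.13 (edgeR adjusted p = 5.65e-09), and 1.02 ± 0.14 against Krt4-positive cells.

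The other 5 ranked genes changed less. Psapl1, a relative of the lysosomal saposin precursor, stood at 103, 63.8 and 51.7 CPM against 49.2, 29.0 and 31.1 CPM (log2 difference 0.90 ± 0.11). Acer2, a Golgi ceramidase, stood at 298, 199 and 197 CPM against 172, 125 and 110 CPM (0.71 ± 0.09). Psca, a membrane-anchored protein of the Ly6 family that is abundant in urothelium, stood at 1412, 2778 and 2057 CPM against 877, 1508 and 1246 CPM (0.70 ± 0.10). Sprr2a3, a small proline-rich protein of cornified envelopes, stood at 1004, 1678 and 1775 CPM against 521, 837 and 968 CPM (0.88 ± 0.09). Its call against Krt4-positive cells was lost without the wild-type (0.55) or the Cab39l knockout library (0.57). Clu, a secreted chaperone, was alike in wild type at 99.6 against 92.0 CPM and higher at 292 against 90.9 CPM in the Lpar6 knockout and at 161 against 94.5 CPM in the Cab39l knockout. Its log2 difference of 0.85 fell to 0.53 without the Lpar6 knockout library, below the 1.5-fold limit, and against Krt4-positive cells its call was lost without either knockout library. Enho, which encodes the peptide adropin, was the ranked gene that fell: 193, 208 and 208 CPM in members against 285, 430 and 364 CPM, a log2 difference of -0.87 ± 0.10 (edgeR adjusted p = 7.51e-08) and of -0.72 ± 0.10 against Krt4-positive cells. Cells with at least 3 gasdermin C but under 5 Krt4 UMIs stood near members for some ranked genes. They had Sprr2a3 at 1166, 1663 and 1479 CPM, Psca at 1202, 2610 and 1719 CPM and Acer2 at 262, 233.5 and 182 CPM. Such levels are thus not particular to the members. Gpnmb (89.3, 49.4 and 34.9 CPM) and Adh7 (75.9, 36.0 and 43.1 CPM) were lower there than in members.

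Another 20 genes were higher in both comparisons but did not meet the ranking rule, and they are named after their values were seen. Cdh2 encodes N-cadherin, and Cldn3 the claudin named above. Cldn3 stood at 5.64, 66.6 and 4.50 CPM against 1.21, 0.110 and 2.34 CPM, and 30 of 58 Lpar6 knockout members held a UMI of it against 3 of 56 and 6 of 119. Its log2 difference of 3.82 ± 0.87 (edgeR adjusted p = 0.00716) was 1.20 and not called without the Lpar6 knockout library. Car8, a carbonic anhydrase relative without enzyme activity, stood at 16.0, 85.1 and 11.1 CPM against 3.37, 2.47 and 2.999 CPM (log2 difference 3.19 ± 0.35, and 1.97 without the Lpar6 knockout library). Atp1b1, a subunit of the sodium pump, stood at 69.5, 92.5 and 46.6 CPM against 34.6, 16.7 and 23.8 CPM. Fxyd4, a regulator of the same pump, stood at 45.1, 71.2 and 30.2 CPM against 18.2, 10.98 and 17.4 CPM. Sgk1, a kinase that regulates sodium transport, stood at 37.6, 73.1 and 24.6 CPM against 15.8, 14.1 and 18.2 CPM. Tpm2, a tropomyosin, had a log2 difference of 1.95 ± 0.21, Pdlim1 one of 1.26 ± 0.18 and Pls1, which encodes a plastin, one of 0.92 ± 0.17. Cells with at least 3 gasdermin C but under 5 Krt4 UMIs had Tpm2 at 75.1, 42.5 and 43.8 CPM, against 65.8, 90.6 and 40.8 CPM in members. Such Tpm2 levels are thus not particular to the members in wild type and the Cab39l knockout. Cldn3 (0, 0.809 and 0 CPM), Car8 (8.12, 8.50 and 4.57 CPM) and Atp1b1 (47.1, 35.2 and 35.6 CPM) were lower there than in members. Fabp4, a fatty acid binding protein, was higher in both comparisons but stood at 66.2 CPM in Cab39l knockout members against 88.4 CPM in that library's Gsdmc-zero cells. It failed the ranking rule on that direction. Cells with at least 3 gasdermin C but under 5 Krt4 UMIs had Fabp4 at 184, 468 and 166 CPM, against 154, 507 and 66.2 CPM in members. In the Lpar6 knockout members, 301 Fabp4 UMIs lay in 1 cell (54.9% of them), and without the top 3 cells the level went from 507 to 183 CPM. Without the Lpar6 knockout library its log2 difference of 0.82 was 0.16 and not called. Without the same library the differences of Tpm2 (1.29), Pdlim1 (0.62), Cdh2 (2.11 of 3.20), Nccrp1 (1.64 of 2.43) and S100a10 (0.65 of 1.57) were over 1.5-fold smaller but stayed called, and that of Tubb2a (0.51 of 0.65) was not called. Slc28a3 was not called without the Cab39l knockout library (2.16 of 2.58). Against Krt4-positive cells, leaving out 1 library ended the calls of Cysrt1, Pls1, Prss32 and Tubb2a (without the Cab39l knockout, at 1.17, 1.11, 1.53 and 0.77) and of Pdlim1 (without the Lpar6 knockout, at 0.50), and Pls1, Prss32 and Tubb2a were not called without wild type either. DESeq2 did not call Cldn3, Fabp4, Pdlim1, S100a10 and Tpm2 against all Gsdmc-zero cells. Against Krt4-positive cells it did not call Car8, Cldn3, Cysrt1, Il18, Pdlim1, Pls1, Prss32, S100a10, Slc28a3, Slit3, Tpm2, Tubb2a and Hbb-bs, nor Clu among the ranked genes. The others were Cysrt1, Ecm1, Fam213a, Il18, Nccrp1, Prss32, S100a10, Slc28a3, Slit3 and Tubb2a. Hbb-bs, a haemoglobin chain, was the second gene lower in both comparisons, with -2.57 against all Gsdmc-zero cells, and -1.19 against Krt4-positive cells that became 0.056 without the wild-type library.

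**Figure D4:**
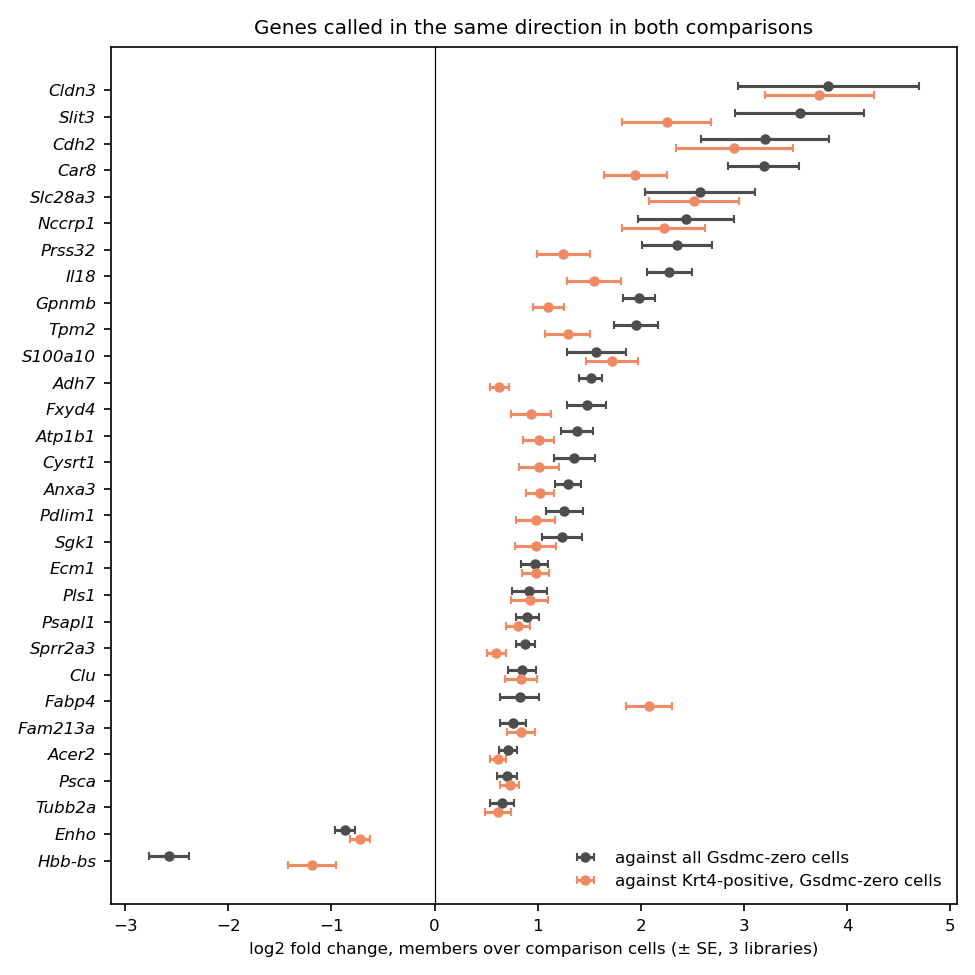
log2 fold change of members over all Gsdmc-zero cells and over Krt4-positive Gsdmc-zero cells for the 28 higher and 2 lower genes called in both comparisons. Error bars are standard errors derived from the edgeR F statistic of the fit to 3 libraries and do not show the spread between libraries. Cldn3 has the highest value in both comparisons, and Enho and Hbb-bs lie below 0.

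Promoters of genes called higher in both comparisons were looked up in RefSeq (GRCm38.p6, 250 bases before to 50 after the start), where 21 of the 33 had an entry. Gsdmc3 and Nupr1, which set or name the cells, are among the 21. The letters TGANTCA, the site of AP-1 factors, occurred on either strand in promoters of 5 of these 21 genes (23.8%), beside 7.81% of 32851 promoters in the table. The letters TTCNNNNGAA, the spaced palindrome that STAT6 can bind, occurred in 2 of the 21 (9.52%), beside 6.95%. The 21 genes count once each, with a match in any of their entries (Sgk1 has several), while the background counts single promoters. These shares are therefore not quite alike, and no test was made on them. A match describes the letters and not a bound site. The promoters of the 3 ranked genes with TGANTCA are printed below with the match in capitals, Gpnmb at chr6:49036268-49036567 (plus strand), Adh7 at chr3:138217523-138217822 (plus strand) and Psapl1 at chr5:36203771-36204070 (plus strand). Beside them stands the promoter of Gsdmc3 at chr15:63878509-63878808 (minus strand), in which neither motif occurs.
Gpnmb: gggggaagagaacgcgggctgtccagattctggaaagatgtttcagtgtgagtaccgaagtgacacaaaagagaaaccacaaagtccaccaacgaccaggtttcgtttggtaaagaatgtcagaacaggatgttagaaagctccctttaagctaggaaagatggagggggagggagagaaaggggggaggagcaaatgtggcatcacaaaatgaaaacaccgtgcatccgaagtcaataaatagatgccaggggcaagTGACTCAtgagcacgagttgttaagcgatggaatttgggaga
Adh7: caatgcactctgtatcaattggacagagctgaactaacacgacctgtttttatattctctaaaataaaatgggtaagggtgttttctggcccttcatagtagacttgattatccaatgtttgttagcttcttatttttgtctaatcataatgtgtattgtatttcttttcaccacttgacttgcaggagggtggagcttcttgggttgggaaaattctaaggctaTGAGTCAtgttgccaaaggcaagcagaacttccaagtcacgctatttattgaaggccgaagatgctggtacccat
Psapl1: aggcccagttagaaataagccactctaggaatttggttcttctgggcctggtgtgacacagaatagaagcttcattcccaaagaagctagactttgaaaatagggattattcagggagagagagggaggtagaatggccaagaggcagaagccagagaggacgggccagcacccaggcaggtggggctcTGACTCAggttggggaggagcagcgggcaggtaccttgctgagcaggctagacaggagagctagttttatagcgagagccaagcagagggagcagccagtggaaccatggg
Gsdmc3: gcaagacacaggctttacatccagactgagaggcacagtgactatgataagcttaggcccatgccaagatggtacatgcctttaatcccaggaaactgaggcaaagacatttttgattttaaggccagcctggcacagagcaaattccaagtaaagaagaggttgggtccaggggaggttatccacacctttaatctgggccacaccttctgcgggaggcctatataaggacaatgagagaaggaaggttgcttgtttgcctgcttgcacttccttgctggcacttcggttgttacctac
The other genes with TGANTCA were Cysrt1 and Ecm1, and those with TTCNNNNGAA were Il18 and Sprr2a3.

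Among 15 genes of pyroptosis and the caspases, 11 were tested against Gsdmc-zero cells and 1, Il18, was higher, beside 1.03% of all genes tested. Their median log2 difference was 0.25, beside -0.03 over all genes tested. Il18 encodes a cytokine of the interleukin-1 family that is released through gasdermin pores. It stood at 20.7, 85.1 and 23.6 CPM in members of the wild-type, Lpar6 knockout and Cab39l knockout libraries against 7.66, 7.28 and 7.20 CPM, higher in every library, with a log2 difference of 2.28 ± 0.22 (edgeR adjusted p = 2.38e-09) that was 1.61 without the Lpar6 knockout library. Against Krt4-positive cells the Il18 difference was 1.54 ± 0.26 (edgeR adjusted p = 0.0103), which DESeq2 did not call. In wild type, 3 cells held 54.5% of the 22 Il18 UMIs of members, and without them the level was 10.1 CPM, below the 13.0 CPM of Krt4-positive cells; in the knockouts it was 70.5 and 19.7 CPM without the top 3 cells. At least 1 Il18 UMI was found in 10 of 56, 43 of 58 and 44 of 119 members. Casp8, whose product can cut gasdermin C, stood at 26.3, 25.9 and 22.8 CPM against 21.6, 16.9 and 17.7 CPM and did not pass (log2 difference 0.36, edgeR adjusted p = 0.316). Pycard, the inflammasome adaptor, stood at 224, 232 and 235 CPM against 199.6, 189.5 and 204 CPM and did not pass. Il1b was at 0 UMIs in all members, and Casp1 reached at most 1.85 CPM. Among the other gasdermins, Gsdmd stood at 12.2, 13.9 and 10.1 CPM against 11.4, 6.30 and 9.55 CPM, and none of the 3 tested passed.

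Of a list of 16 keratins, 9 were tested with Krt4 left out, and Krt15 was higher and Krt23 lower. Over all genes tested, 1.03% were higher and 0.971% lower. Krt15, a type I keratin of basal cells, stood at 2343, 2275 and 1833 CPM in members and at 1018, 178 and 1062 CPM in Gsdmc-zero cells, a log2 difference of 1.77 ± 0.25 (edgeR adjusted p = 5.41e-06) that was 0.96 without the Lpar6 knockout library. Against Krt4-positive cells, at 1739, 462 and 1911 CPM, the Krt15 difference of 0.77 ± 0.26 did not pass, and without the Lpar6 knockout library it was 0.14. Members of the Lpar6 knockout thus had nearly the wild-type members' Krt15 level although their library's other cells had much less of it. Krt5, the basal type II keratin, stood at 236, 142 and 234 CPM in members against 293, 185 and 318 CPM, a log2 difference of -0.44 that passed on p (edgeR adjusted p = 0.00151) but not on size. Of 15 basal genes, 12 were tested and Krt15 and Lama3 were higher, with a median of 0.33; Lama3 was not called without the wild-type library (0.68 of 0.82), nor Krt23 without the wild-type (-0.57 of -0.64) or the Cab39l knockout library (-0.51). Krt14 and Krt17 were at 0 UMIs in all members. After thinning to 5000 UMIs, 37 of 56 wild-type, 26 of 58 Lpar6 knockout and 85 of 119 Cab39l knockout members held both Krt15 and Upk2 UMIs. The luminal transcription factors (12 of 12 tested) had none called and a median of 0.00.

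**Figure D5:**
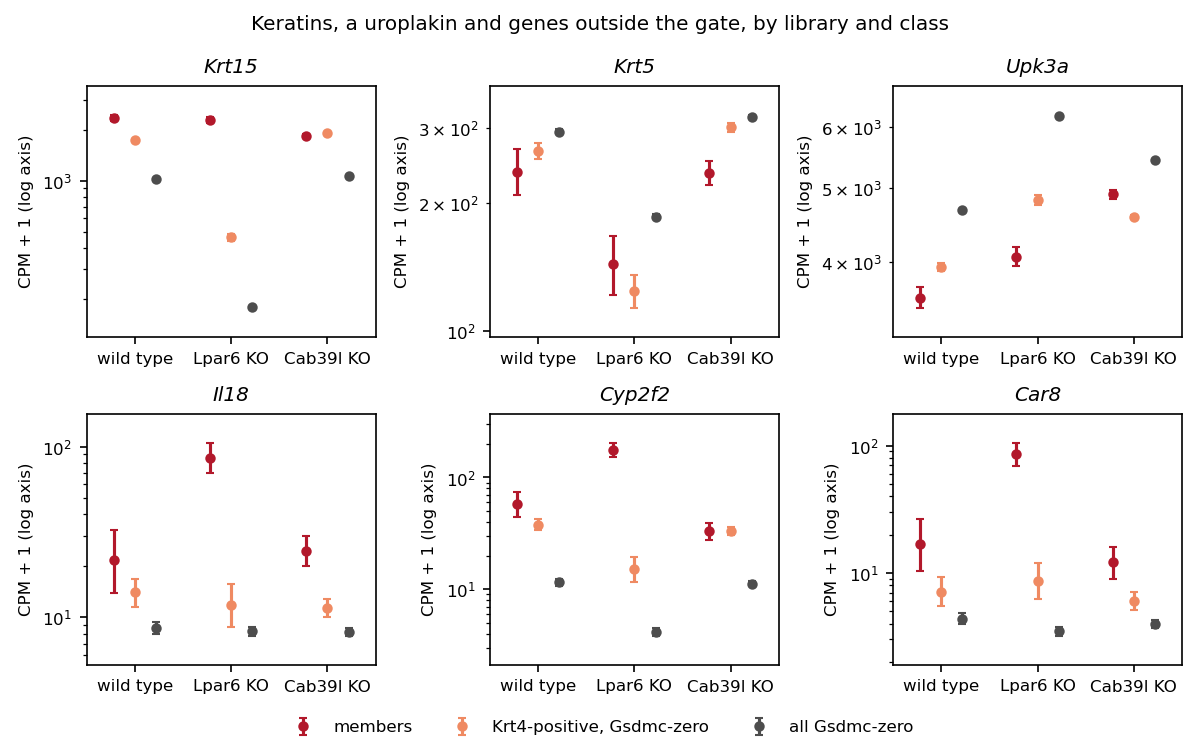
CPM + 1 on a log axis for 2 keratins, a uroplakin and 3 further genes in the summed cells of each class and library, with exact 95% Poisson intervals. Krt15 of Lpar6 knockout members lies near that of wild-type members while both comparison classes of that library lie lower, and Il18 and Car8 of members lie above both comparison classes in all 3 libraries.

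Of 21 enzymes of xenobiotic and aldehyde metabolism, 20 were tested, and Cyp2f2, Aldh3a1, Aldh1a1 and Adh7 were higher, with none lower and a median of 0.41, beside 1.03% of all genes higher. Their summed level was 31205, 29535 and 35828 CPM in members against 31247, 32935 and 34054 CPM. Cyp2f2, a cytochrome P450, stood at 56.4, 177 and 32.1 CPM in members of the wild-type, Lpar6 knockout and Cab39l knockout libraries against 10.5, 3.14 and 10.2 CPM (log2 difference 3.23 ± 0.37, edgeR adjusted p = 9.84e-08), a difference that was 1.89 without the Lpar6 knockout library. Against Krt4-positive cells, at 36.9, 14.1 and 32.3 CPM, it did not pass. Aldh3a1 stood at 247, 198 and 190 CPM against 128, 76.1 and 123 CPM. Of 28 genes of squamous and cornified epithelium, 16 were tested and Sprr2a3, Dsc2, Pkp1, Sbsn and Anxa1 were higher, with a median of 0.44. Sbsn, suprabasin, stood at 21.6, 62.9 and 26.0 CPM against 13.9, 16.0 and 16.2 CPM. Without the Lpar6 knockout library Anxa1 (0.38), Aldh1a1 (0.58) and Pkp1 (0.74) were not called, and Dsc2 was not called without the wild-type (0.63) or the Cab39l knockout library (0.56). Against Krt4-positive cells, 1 gene of each list was called, Adh7 and Sprr2a3.

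Genes of antigen presentation, defence and cytokine response that were called were lower more often than higher against all Gsdmc-zero cells, which hold the macrophage and dendritic markers given above; over all genes tested, 0.971% were lower. Of 15 genes of antigen presentation by MHC class I, all were tested and 3 were lower, with a median of -0.42. B2m, the shared light chain of class I molecules, stood at 265, 285 and 250 CPM in members against 422, 463 and 352 CPM, a log2 difference of -0.68 ± 0.09 (edgeR adjusted p = 2.48e-06). H2-Q7 (-1.29 ± 0.15) and the immunoproteasome subunit Psmb8 (-0.66 ± 0.13) were the others, and Psmb8 was not called without the Lpar6 knockout (-0.55) or the wild-type library (-0.52). Against urothelial Gsdmc-zero cells 2 of the 15 were lower, and against Krt4-positive cells none was. MHC class II genes were lower in 5 of 6 tested against all Gsdmc-zero cells and in 1 of 6 against urothelial ones. Of 20 genes of the type 2 cytokine response, 11 were tested, Retnla, Chil3 and Alox15 were lower against all Gsdmc-zero cells and none was called against urothelial ones. Stat6 stood at 27.2, 24.0 and 20.9 CPM against 35.4, 18.5 and 19.6 CPM and did not pass. The interferon list (18 of 30 tested) had 1 lower gene, and the NF-kB list (13 of 21 tested) had Ier3 higher, beside 1.03% of all genes higher. Of 20 genes of defence and secretion, 10 were tested, Clu was higher, and S100a8, S100a9, Slpi and Saa3 were lower against all Gsdmc-zero cells. None of these was lower against urothelial ones.

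The remaining lists gave few calls against Gsdmc-zero cells, where 1.03% of all genes tested were higher and 0.971% lower. In the Ly6 family, 8 of 13 were tested and Ly6e and Psca were higher, with a median of 0.23. Ly6e stood at 117, 219 and 125 CPM against 92.6, 55.8 and 77.7 CPM, and was not called without the Lpar6 knockout library (0.53 of 0.95). Among EGF ligands and receptors, 6 of 8 were tested and Areg (amphiregulin) was higher, at 16.0, 25.9 and 10.6 CPM against 11.8, 3.89 and 5.36 CPM. Of 14 junction genes all were tested and Cldn3 was higher. Of 9 goblet cell genes 6 were tested and Tff1 was higher, although in the Lpar6 knockout it stood at 1.85 CPM in members, below Gsdmc-zero cells, and it was not called without the wild-type or the Cab39l knockout library (0.89 of 1.14 without the latter). The stress list with Nupr1's relatives (14 of 17 tested) and the cell cycle list (9 of 11 tested) had no called gene, and 2 of 21 immediate early and heat shock genes, Klf2 and Nr4a1, were lower. One tuft cell gene was testable and was not called.

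Between genotypes, 1 library each, the members can be described but not tested. Each knockout's ratio to wild type in members was set against the same ratio in Gsdmc-zero cells, over genes with at least 50 UMIs in both member sums together and 50 CPM in the higher one. The genes of the gate are left out, since the rule sets them. In the Lpar6 knockout, 42 of 2597 genes were at least 2-fold higher in members relative to Gsdmc-zero cells and 3 were at least 2-fold lower. In the Cab39l knockout, 0 of 2554 were higher and 4 were lower. The highest in the Lpar6 knockout were Nupr1, Dapl1, Cldn3, S100a10 and Ly6a. Dapl1, a death-associated protein relative of differentiating epithelium, stood at 55.5 CPM in Lpar6 knockout members with 21 of 60 UMIs in 1 cell, and 1 of 56 wild-type members held a UMI. S100a10, which pairs with annexin A2, stood at 108 CPM against 28.2 CPM in wild-type members, while Gsdmc-zero cells stood at 8.9999 CPM in the knockout and 30.9 CPM in wild type. In Krt4-positive Gsdmc-zero cells S100a10 stood at 12.1 CPM in the knockout and 9.15 CPM in wild type, while Ly6a stayed lower in the knockout, at 1.54 against 6.69 CPM. All Gsdmc-zero cells were the baseline, and 282 of 2930 in wild type and 76 of 4437 in the Lpar6 knockout were not urothelial. The part of these cells in the ranks and counts was not tested. Cd52 was the lowest in both knockouts, but 111 of its 113 UMIs in wild-type members came from 1 cell. The others lowest in the Lpar6 knockout were Hsd17b2 and Exosc10, and, under 2-fold, Emc4 and Emid1. In the Cab39l knockout the lowest after Cd52 were Fabp4, Akr1b7 and Egr1, and, under 2-fold, Slc22a23. In wild-type members 113 of the 122 Akr1b7 UMIs lay in 1 cell, and without the top 3 cells Fabp4 stood at 66.5 CPM there, beside 66.2 CPM in all Cab39l knockout members. In the same library the highest were Ifitm3, Mt2, Ergic2, Plcd1 and Arhgdib, each under 2-fold.

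Ly6a and Nupr1 were each common among Lpar6 knockout members, and whether they went together beyond that was not tested. After thinning to 5000 UMIs, 22 of 58 Lpar6 knockout members held both Ly6a and Nupr1, 8 held Ly6a alone, 11 Nupr1 alone and 17 neither. In wild type 2 of 56 members and in the Cab39l knockout 2 of 119 held both. The same library had the highest gasdermin C and Krt4 levels in members, the lowest member depth and 8 of the 11 members that were not urothelial by the marker rule. Their part in these levels was not tested, but with urothelial cells alone the Lpar6 knockout members stood at 545 CPM of Nupr1, 122 CPM of Ly6a and 66.7 CPM of Cldn3.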

How the data were processed

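The deposited matrices hold unnormalised UMI counts for each gene in each barcode, made by the authors with Cell Ranger 3.0.2 and the mm10 build, per the submitters' processing notes and the file headers. The 3 libraries held 101977647, 139250807 and 175075246 UMIs. Members and gene lists were chosen with earlier results of these data known. UMIs were summed per library and class, and shown as CPM with exact 95% Poisson intervals, which cover counting error only. Sums were compared with edgeR 4.0.16 (TMM factors, filterByExpr, quasi-likelihood test, library as a block because both sums come from the same library). The step was tested on simulated data. DESeq2 1.42.0 was an alternative. Named genes were up to 15 in each direction called in both comparisons and against urothelial cells, and 2 to 4 of each list. Those ranked had at least 50 CPM in the higher class and the same direction in every library. Cells were called urothelial when their uroplakin share reached 0.35 of the library's median and other cell types' markers stayed under 0.05% of UMIs. Scrublet's own threshold in scanpy 1.11.5 marked 22 of 16821 cells (0.131%), so doublets were kept and the top 6% of scores removed as an alternative. No reads were used, and the sources used here do not name the annotation release.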

Additional observations from a re-analysis of the deposited data

Results flagged for a closer look

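Among barcodes left out for over 20% mitochondrial UMIs, the rule for members was met by 5 of 1658 in the wild-type library (0.302%), 1 of 631 in the Lpar6 knockout library and 0 of 820 in the Cab39l knockout library, a signal in barcodes that no comparison used.

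Nupr1 differed in direction between libraries when all Gsdmc-zero cells were the comparison. On the log2 scale of CPM + 1, members minus Gsdmc-zero cells gave 1.62 in wild type and 7.12 in the Lpar6 knockout but -0.93 in the Cab39l knockout. With both classes limited to urothelial cells the Cab39l knockout members were higher as well, at 14.7 against 6.28 CPM, so the opposite direction is seen only with all Gsdmc-zero cells. Agr2, a gene of secretory cells, gave 0.75 (Lpar6 knockout) and -0.96 (Cab39l knockout). With 1 library per genotype neither difference between libraries was tested.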

How the results depend on the processing

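Against Gsdmc-zero cells the 255 calls became 115 with DESeq2, 153 among cells of 15000 to 40000 UMIs and 11 without the library block, and ranged from 243 to 277 when a library was left out. Against Krt4-positive Gsdmc-zero cells the 36 calls became 20 with DESeq2, 58 with at least 5 gasdermin C UMIs, 22 at no more than 10% mitochondrial UMIs, 85 with no filter on low counts and 2 without the replicate block, and ranged from 47 to 52 when a library was left out. Hbb-bs ranged there from -1.43 to 0.056, reversed without the wild-type library. Over the named genes, 108 of 624 results under alternatives lost their call against Gsdmc-zero cells and 88 of 392 against Krt4-positive cells, and 4 of 48 kept their call against Gsdmc-zero cells without the block; the cause was not tested. With the genes of the gate counted, the 47 genes at least 2-fold apart in Lpar6 knockout members became 71 with the mean of per-cell CPM and 82 with at least 5 gasdermin C UMIs, and the 5 of the Cab39l knockout became 30 after thinning. The member shares became 2.69% (wild type) and 1.56% (Lpar6 knockout) with cells thinned to 5000 UMIs and 1 UMI of each required, 1.14% (wild type) and 1.17% (Cab39l knockout) with at least 5 gasdermin C UMIs, and 0.818%, 0.781% and 1.40% with at least 10 Krt4 UMIs. The Lpar6 knockout had the lowest share under each alternative tried.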
